A study of Homo sapiens with 20 samples.

Results

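The genes described here are those of the insulin receptor, PI3K and FOXO pathway in 2 human lymphoma cell lines, DOHH2 and U2932, each given DMSO or a compound that the labels call TK, for 8 h or 18 h. They are the 9 gene rows, of 58288 in each library, whose symbol is INSR, IGF1R, IRS1, IRS2, PIK3CD, PIK3R1, INPP5D, FOXO1 or FOXO3, and each symbol matched 1 row. All 9 passed the filter on low counts, INSR only through its counts in DOHH2 and IRS2 only through those in U2932. DOHH2 gave 3 libraries with DMSO and 3 with TK at 8 h, and 2 with DMSO (replicates 1 and 3) and 3 with TK at 18 h. U2932 gave 3 with DMSO and 2 with TK at 8 h, and 1 with DMSO (replicate 2) and 3 with TK at 18 h. The dose and the nature of TK are not given in the labels, and each line is a single established line. Whether the replicates came from separate cultures is not stated, and the spread behind each p-value may then be only technical.

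Insulin and the insulin-like growth factors bind 2 related receptor tyrosine kinases, encoded by INSR and IGF1R, which phosphorylate the adaptor proteins encoded by IRS1 and IRS2. The adaptors recruit PI3K, a dimer of a regulatory subunit (p85-alpha, encoded by PIK3R1) and a catalytic subunit (p110-delta, the form typical of leukocytes, encoded by PIK3CD), which makes the membrane lipid PIP3. In B cells the same enzyme also works below the B cell receptor. The phosphatase SHIP1, encoded by INPP5D, removes PIP3. PIP3 activates the kinase AKT, and AKT keeps the transcription factors FOXO1 and FOXO3 out of the nucleus, where they otherwise drive genes of quiescence, stress resistance and lymphocyte homing.

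INSR and IRS2 are the genes that were all but restricted to 1 line each, and IGF1R and IRS1 are their relatives that were measured in both lines. The sequences of these 4 starts are therefore shown, as the 250 bases before the transcription start in RefSeq (GRCh38.p14), 5′ to 3′ on the strand of the gene, with every CpG in capitals. They lie at chr19:7294415-7294664 (minus strand, INSR), chr15:98648289-98648538 (plus strand, IGF1R), chr2:226799821-226800070 (minus strand, IRS1) and chr13:109786584-109786833 (minus strand, IRS2).
INSR: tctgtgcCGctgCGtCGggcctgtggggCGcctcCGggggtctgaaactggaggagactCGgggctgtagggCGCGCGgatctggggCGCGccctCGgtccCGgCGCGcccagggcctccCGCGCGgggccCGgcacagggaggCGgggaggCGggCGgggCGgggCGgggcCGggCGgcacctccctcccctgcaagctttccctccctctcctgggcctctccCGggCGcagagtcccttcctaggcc
IGF1R: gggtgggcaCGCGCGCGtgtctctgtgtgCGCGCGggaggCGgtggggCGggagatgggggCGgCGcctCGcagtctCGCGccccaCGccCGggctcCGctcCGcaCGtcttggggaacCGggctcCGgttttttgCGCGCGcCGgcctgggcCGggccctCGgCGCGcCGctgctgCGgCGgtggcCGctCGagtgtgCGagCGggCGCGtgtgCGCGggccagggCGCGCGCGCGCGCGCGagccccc
IRS1: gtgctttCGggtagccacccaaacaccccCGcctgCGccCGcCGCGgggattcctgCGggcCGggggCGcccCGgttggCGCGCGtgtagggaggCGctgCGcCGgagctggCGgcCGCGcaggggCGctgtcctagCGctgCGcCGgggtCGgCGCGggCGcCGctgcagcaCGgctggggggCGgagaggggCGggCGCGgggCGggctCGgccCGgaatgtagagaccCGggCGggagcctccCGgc
IRS2: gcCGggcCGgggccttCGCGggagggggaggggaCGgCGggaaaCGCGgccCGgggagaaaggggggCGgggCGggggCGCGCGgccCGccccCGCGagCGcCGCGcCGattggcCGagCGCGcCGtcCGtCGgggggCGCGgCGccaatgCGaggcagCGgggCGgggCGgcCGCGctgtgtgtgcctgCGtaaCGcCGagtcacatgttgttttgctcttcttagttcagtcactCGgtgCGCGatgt
All 4 starts were rich in CpG. INSR held 28 CpG in the 250 bases, IRS1 39, IRS2 42 and IGF1R 48, against a median of 11 over 35116 RefSeq starts, of which 15.9% held at least 28. The share of G and C was 78.4% for INSR, 81.2% for IGF1R, 80.8% for IRS1 and 76.4% for IRS2, and 58% was the median of all starts. In windows of 300 bases that reach 50 bases past each start, the FOXO core letters GTAAACA were found on neither strand in any window of the 9 genes (3.42% of all windows held them). The letters TATAAA (11.5% of all windows) and CCGGAAG (10.3%), searched on both strands, were also in none of them, and CACGTG (7.26%), which reads the same on both strands, was in that of IRS1. No match says only that these letters are not in the window, and methylation was not measured.

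Gene counts summed to 30363255 to 52275430 per library, with a median of 34671988, so a count of 10 is about 0.288 CPM in the median library. Levels are TMM-scaled CPM, which is counts relative to library size, given as mean ± SD over n libraries, and levels of different genes are compared as CPM per kb of exon. DOHH2 TK 18 h replicate 1 stood apart, with 56.6% of all its counts not uniquely aligned, where the lowest library had 20.7%, and so did DOHH2 TK 8 h replicate 1, with the lowest share of mitochondrial counts (3.29%). For the single DMSO library of U2932 at 18 h, the fit takes the spread of the other groups. All 7 B cell markers checked had a median of at least 5 CPM in both lines. Of 6 T cell markers, CD3D, CD3G and CD2 had a median of 0 in both lines, CD3E and CD28 one of at most 0.319 CPM, and CD247 was at 2.54 to 6.34 CPM in DOHH2 and 4.94 to 10.6 CPM in U2932. The 5 myeloid markers summed to 0.0976 to 0.951 CPM in DOHH2 and 1.21 to 2.41 CPM in U2932. Of 6 epithelial and fibroblast markers, EPCAM had 21.0 to 32.2 CPM in U2932 and COL1A1 4.96 to 29.2 CPM in DOHH2, and their part in the results was not tested. Of 6 germinal centre markers, 3 had a median under 1 CPM in DOHH2 and none in U2932, which is not the usual class of the 2 lines. GCSAM of that list was higher in DOHH2 (142 to 210 CPM, against 47.5 to 54.9). Of 6 activated B cell markers 6 had a median of at least 5 CPM in DOHH2 and 5 in U2932, and their directions were divided. Medians of IRF4, CCND2 and ENTPD1 were higher in DOHH2 (805, 118 and 120 CPM, against 366, 0.143 and 8.05). Those of PIM1, FOXP1 and BATF were higher in U2932 (116, 44.6 and 15.6 CPM, against 39.9, 6.78 and 11.4). The lines are named as labelled, whether the 2 labels are exchanged was not tested, and an exchange would turn every direction between the lines given here.

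The insulin receptor gene INSR was a gene of DOHH2. In DMSO at 8 h its level was 114, 122 and 110 CPM in replicates 1, 2 and 3 of DOHH2 and 0.115, 0.178 and 0.137 CPM in those of U2932, which were 4, 6 and 5 counts. Every DOHH2 library was far above every U2932 library. The mean in DOHH2 was 115 ± 6.36 CPM (SD, n = 3), a log2 difference of 9.63 (SE 0.28, adjusted p = 1.79e-16). INSR passed the filter on low counts only through DOHH2, so tests between the lines had to pass and their p-values add no support. From the summed counts, 13064 in DOHH2 and 15 in U2932, the level was 814-fold higher (95% interval 493 to 1454, exact, for counting error only). With TK at 18 h INSR was at 162, 116 and 111 CPM in DOHH2 and at 0.0993, 0 and 0.111 CPM in U2932 (log2 difference 10.75, SE 0.30, adjusted p = 1.47e-16). INSR lies on chromosome 19 at 7112255 to 7294034 on the minus strand (this and later gene positions are from GENCODE v29, GRCh38).

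IRS2, the adaptor best known for its role in liver and beta cells, had the opposite pattern. In DMSO at 8 h U2932 had 16.5, 9.92 and 11.2 CPM in replicates 1, 2 and 3, a mean of 12.5 ± 3.47 CPM (SD, n = 3). The DOHH2 libraries had 0.0325, 0 and 0 CPM, which was 1 count in all. No U2932 library came near a DOHH2 library. The log2 difference, DOHH2 minus U2932, was -10.00 (SE 0.53, adjusted p = 8.26e-13), and the summed counts gave a level 1413-fold higher in U2932 with a counting interval of 253 to 55858. IRS2 passed the filter on low counts only through U2932, so here too the tests between the lines had to pass. With TK at 18 h U2932 had 11.7, 6.27 and 7.89 CPM and DOHH2 0.0290, 0 and 0.0328 CPM (log2 difference -8.73, SE 0.50, adjusted p = 3.20e-12). Over the 11 DOHH2 libraries IRS2 had 17 counts, with 3 libraries at 0 and no library above 4 counts, while over the 9 U2932 libraries each had 220 to 574 counts. IRS2 lies on chromosome 13 at 109752698 to 109786568 on the minus strand. An antisense gene, AL162497.1, overlaps 1.41% of its exon length and had 0 counts in all 20 libraries.

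**Figure D1:**
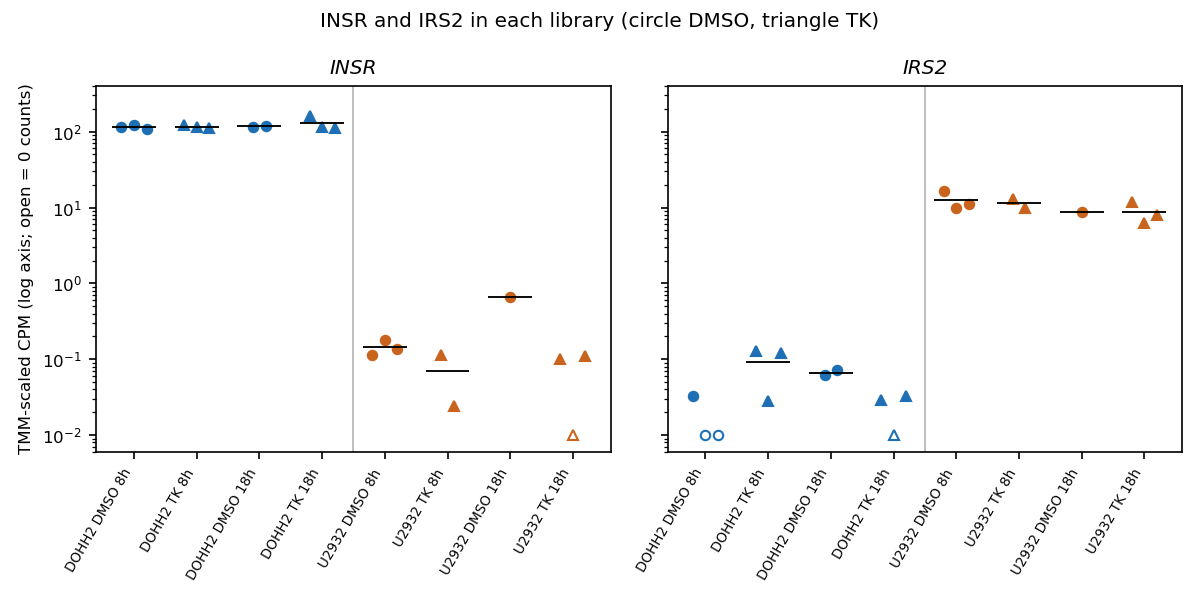
Levels of INSR (left) and IRS2 (right) in each library, as TMM-scaled CPM on a log axis, with circles for DMSO and triangles for TK, DOHH2 left and U2932 right of the grey line, and bars for group means where no library had 0 counts. INSR was at 110 to 162 CPM in DOHH2 and at most 0.669 CPM in U2932, and IRS2 was at 6.27 to 16.5 CPM in U2932 and at most 0.130 CPM in DOHH2. Open symbols at the bottom are libraries with 0 counts.

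The relatives of these genes were measured in both lines, with far smaller differences. IGF1R, the receptor for the insulin-like growth factors, was at 13.7, 19.7 and 19.1 CPM in DOHH2 and at 24.3, 22.7 and 25.3 CPM in U2932 in DMSO at 8 h. It was lower in every DOHH2 library (log2 difference -0.46, SE 0.17, adjusted p = 0.0239). The order was turned with TK at 18 h, with 20.8, 19.5 and 19.2 CPM in DOHH2 and 12.5, 15.1 and 16.9 CPM in U2932 (log2 difference 0.41, SE 0.17, adjusted p = 0.0404). Both differences of IGF1R were fragile. Without DOHH2 DMSO 8 h replicate 1 the first was -0.31 (adjusted p = 0.133), and it also missed the threshold without U2932 DMSO 8 h replicate 1 (-0.45, 0.0509) or replicate 3 (-0.42, 0.0668). The second missed it in 9 of the alternative fits, among them DESeq2 (0.37, adjusted p = 0.0608) and the fit without U2932 TK 18 h replicate 1 (0.31, 0.168). Whether the line difference itself changed between these 2 conditions was not tested. IGF1R lies on chromosome 15 at 98648539 to 98964530 on the plus strand.

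IRS1, the adaptor best known from muscle and fat, was at 15.8, 20.7 and 17.0 CPM in DOHH2 and at 15.2, 13.6 and 11.3 CPM in U2932 in DMSO at 8 h. DOHH2 was higher without overlap (log2 difference 0.42, SE 0.16, adjusted p = 0.0228), but the call was lost without DOHH2 DMSO 8 h replicate 2 (0.30, adjusted p = 0.135) or U2932 DMSO 8 h replicate 3 (0.31, 0.121). In the TK libraries of 18 h the difference was 1.36 (SE 0.16, adjusted p = 2.01e-07), with 23.6, 18.9 and 16.9 CPM in DOHH2 and 8.18, 7.07 and 7.84 CPM in U2932. IRS1 lies on chromosome 2 at 226731317 to 226799759 on the minus strand. DOHH2 thus held INSR, IGF1R and IRS1 transcripts, and U2932 those of IGF1R, IRS1 and IRS2.

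Among the PI3K genes, the catalytic subunit differed between the lines more than the regulatory one. PIK3CD was at 112, 139 and 112 CPM in DOHH2 and at 54.8, 55.0 and 57.8 CPM in U2932 in DMSO at 8 h, with no overlap. Its log2 difference was 1.11 (SE 0.15, adjusted p = 1.57e-06), and with TK at 18 h 0.72 (SE 0.15, adjusted p = 0.000236). PIK3R1 averaged 34.5 ± 0.892 CPM in DOHH2 and 38.7 ± 5.54 CPM in U2932 (SD, n = 3 each), where the groups overlapped (log2 difference -0.16, 95% interval -0.46 to 0.14, adjusted p = 0.351). At 18 h with TK, PIK3R1 passed the test at 0.37 (SE 0.15, adjusted p = 0.0375) although the groups still overlapped, and the call was lost in 7 alternative fits, DESeq2 among them (0.32, adjusted p = 0.058). The 7 included the fits without DOHH2 TK 18 h replicate 2 (0.28) or replicate 3 (0.32). Those without U2932 TK 18 h replicate 2 (0.30) or replicate 3 (0.31) were among them too. PIK3CD lies on chromosome 1 at 9651732 to 9729114 on the plus strand and PIK3R1 on chromosome 5 at 68215720 to 68301821 on the plus strand. The gene CLSTN1, at 171 to 319 CPM, overlaps 1.41% of the exon length of PIK3CD on the other strand, and the strand setting of the counting is not given.

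INPP5D, which encodes the PIP3 phosphatase SHIP1 of blood cells, differed in the same direction as PIK3CD. It was at 94.5, 120 and 89.0 CPM in DOHH2 and at 50.6, 59.1 and 44.8 CPM in U2932 in DMSO at 8 h, without overlap. The log2 difference was 0.97 (SE 0.17, adjusted p = 5.38e-05), and 1.21 (SE 0.18, adjusted p = 3.63e-06) with TK at 18 h. INPP5D lies on chromosome 2 at 233059967 to 233207903 on the plus strand. The kinase subunit and its opposing phosphatase were thus both higher in DOHH2.

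Both FOXO genes were higher in DOHH2, FOXO3 by more than FOXO1. FOXO3, the longevity-linked member of the family, was at 15.8, 26.2 and 22.9 CPM in DOHH2 and at 9.32, 6.96 and 7.67 CPM in U2932 in DMSO at 8 h (log2 difference 1.44, SE 0.19, adjusted p = 1.11e-06). In TK at 18 h it was at 25.8 ± 2.07 CPM in DOHH2 and at 5.79 ± 0.724 CPM in U2932 (SD, n = 3 each), a log2 difference of 2.16 (SE 0.20, adjusted p = 4.30e-09). FOXO1, the member that germinal centre B cells depend on, was at 57.3, 61.2 and 56.0 CPM in DOHH2 and at 49.4, 38.5 and 41.9 CPM in U2932 in DMSO at 8 h. Its log2 difference was 0.43 (SE 0.13, adjusted p = 0.00778), which was 0.34 (adjusted p = 0.0543) without U2932 DMSO 8 h replicate 2, and 0.60 (SE 0.13, adjusted p = 0.000515) with TK at 18 h. FOXO1 lies on chromosome 13 at 40469953 to 40666597 on the minus strand and FOXO3 on chromosome 6 at 108559835 to 108684774 on the plus strand. The counts of FOXO3 are uncertain because FOXO3B is a near copy of it, at 2.51 to 6.15 CPM in DOHH2 and 0.513 to 1.05 CPM in U2932. The RNA gene LINC00598 shares 4.32% of the exon length of FOXO1 on the same strand and was at 0.496 to 2.20 CPM.

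**Figure D2:**
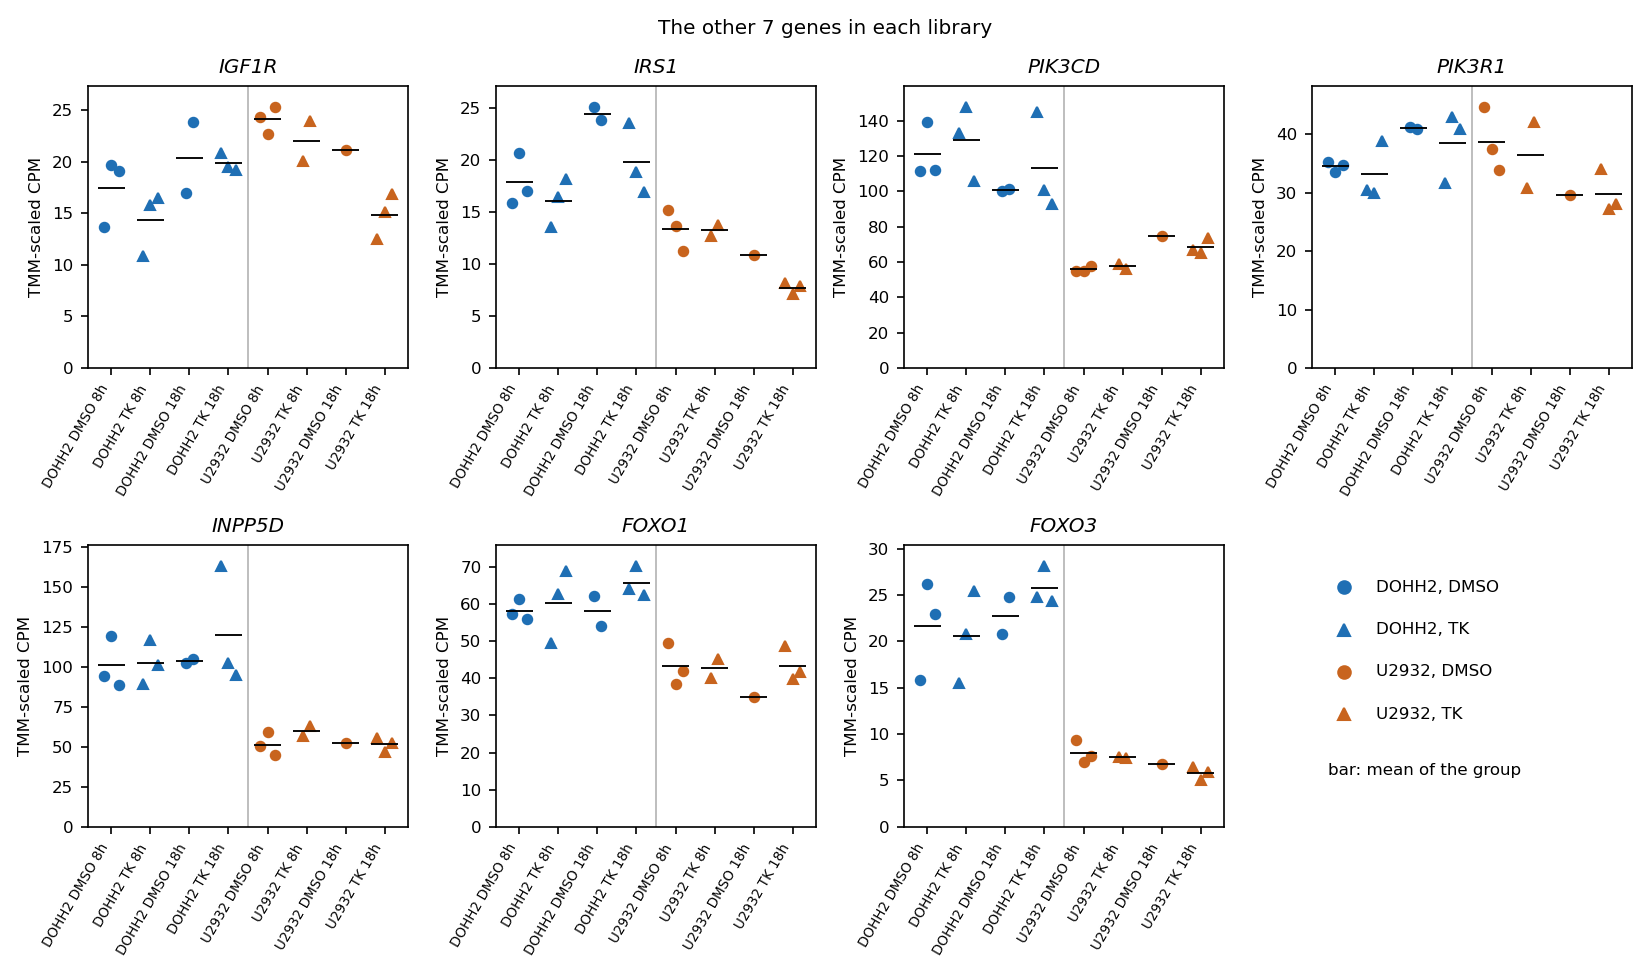
Levels of the other 7 genes in each library, as TMM-scaled CPM on linear axes from 0, with circles for DMSO, triangles for TK, blue for DOHH2, orange for U2932 and bars for group means. PIK3CD, INPP5D, FOXO1 and FOXO3 were higher in DOHH2, and IGF1R, IRS1 and FOXO3 of U2932 were lowest with TK at 18 h (12.5 to 16.9, 7.07 to 8.18 and at most 6.45 CPM).

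In all, 8 of the 9 genes differed between the lines in DMSO at 8 h, 6 higher and 2 lower in DOHH2, where 67.8% of the 16478 genes tested did (33% higher and 34.9% lower). In the TK libraries of 18 h, 9 of 9 differed, 8 higher and 1 lower, where 69.2% of all genes did (34.2% higher and 34.9% lower). Their groups did not overlap for 8 of 9 genes in each of these comparisons, as for 73.8% of all genes in DMSO at 8 h and 72.3% with TK at 18 h. INSR and IRS2 passed the filter only through the line in which they are high, so they had to differ. Most genes differ between these lines, and the count of called members is read against that. The median log2 difference of the 9 genes was 0.43 in DMSO at 8 h and 0.72 with TK at 18 h, and that of all genes -0.03 and -0.003. In bulk RNA of this kind, fewer cells with a transcript and less of it per cell cannot be told apart.

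**Figure D3:**
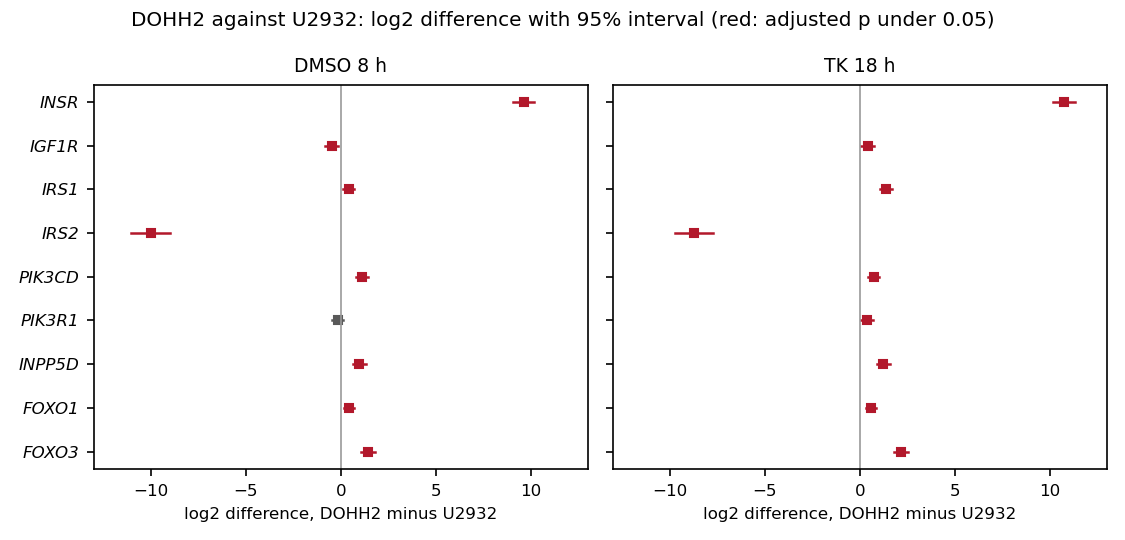
Log2 difference between the lines, DOHH2 minus U2932, in DMSO at 8 h (left) and with TK at 18 h (right), with bars of the 95% interval and red for an adjusted p under 0.05 (n = 3 libraries of each line). INSR lies at 9.63 and 10.75 and IRS2 at -10.00 and -8.73, and the other 7 genes lie between -0.46 and 2.16.

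Per kb of exon, PIK3CD had the highest level of the 9 genes in both lines, 18.5 ± 3.17 CPM per kb in DOHH2 (SD, n = 11) and 9.87 ± 1.23 in U2932 (SD, n = 9). In DOHH2 it was followed by INPP5D (12.3 ± 2.43 CPM per kb), INSR (11.5 ± 1.40) and FOXO1 (9.75 ± 0.999), of which neighbours differed by less than their SDs together. PIK3R1 (3.38 ± 0.442 CPM per kb) and FOXO3 (2.94 ± 0.528) did not differ beyond their spread either. IRS1 (1.92 ± 0.376 CPM per kb) and IGF1R (1.28 ± 0.255) came next, and IRS2 was last at 0.00564. In U2932 FOXO1 (6.78 ± 0.755 CPM per kb) and INPP5D (6.17 ± 0.659) could not be ordered by their SDs, and PIK3R1 was at 3.18 ± 0.572. IGF1R (1.45 ± 0.320 CPM per kb), IRS2 (1.30 ± 0.367), IRS1 (1.12 ± 0.294) and FOXO3 (0.908 ± 0.157) each differed from the next by less than their spread, and INSR was last at 0.0154. These SDs are over all libraries of a line and do not use that the genes share libraries. Within each U2932 library IGF1R was 1.10 to 1.60 times IRS1. IRS2 of U2932 thus stood near the mean levels of IRS1 and IGF1R. INSR of DOHH2 stood among the most abundant of these genes and well above IGF1R of the same line.

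Few differences of these genes with TK were larger than the spread between libraries. Of the 36 comparisons of TK with DMSO, 9 genes in 2 lines at 2 times, 1 passed the test. The 4 that concern INSR in U2932 or IRS2 in DOHH2 rest on a few counts, and the other 32 log2 changes lay between -0.51 and 0.31, with none past the threshold. In DOHH2 0 of 9 genes passed at 8 h, where 0% of all genes did, and 0 of 9 at 18 h, where 0.0728% did. Nor were the TK and DMSO groups of DOHH2 apart at 8 h for any of the 9, as they were for 5.56% of all genes. In U2932 at 8 h 0 of 9 passed (0% of all genes). With edgeR's quasi-likelihood test 497 genes in DOHH2 and 276 in U2932 had an unadjusted p under 0.05 at 8 h, and DESeq2 also called 0 in both. Both counts are below a share of 0.05 of the 16478 genes tested, which no effect on any gene would give on average. A missed threshold does not show that TK had no effect on these genes, and the intervals give the sizes that remain possible.

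In DOHH2 the receptor INSR was at 116 ± 4.07 CPM with TK and 115 ± 6.36 CPM with DMSO at 8 h (SD, n = 3 each), a log2 change of 0.01 (95% interval -0.31 to 0.32). At 18 h it was at 130 ± 28.4 CPM with TK (n = 3) and 117 ± 2.79 CPM with DMSO (n = 2), a change of 0.15 (95% interval -0.21 to 0.50). The highest library was TK 18 h replicate 1 with 162 CPM, and without it the change was -0.05. The same library also had the highest INPP5D level (163 CPM) and the highest PIK3CD level at that time (145 CPM). Without it the changes of INPP5D and PIK3CD at 18 h were -0.08 and -0.06 in place of 0.21 and 0.16. IRS1 was at 19.8 ± 3.43 CPM with TK and 24.5 ± 0.903 CPM with DMSO, with all TK libraries below both DMSO libraries (log2 change -0.31, 95% interval -0.64 to 0.03, adjusted p = 0.648). Groups that did not overlap were seen for 3 of the 9 genes at 18 h (IRS1 and IRS2 below, FOXO1 above), as for 25% of all genes. The lowest levels of IGF1R (10.8 CPM), IRS1 (13.5), FOXO1 (49.4) and FOXO3 (15.6) in DOHH2 were all in TK 8 h replicate 1, the library with few mitochondrial counts.

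In U2932 at 8 h the changes with TK were -0.13 for IGF1R (95% interval -0.51 to 0.25), -0.02 for IRS1 (-0.36 to 0.33) and -0.14 for IRS2 (-0.67 to 0.39). They were 0.04 for PIK3CD (-0.29 to 0.37), -0.08 for PIK3R1 (-0.42 to 0.25), 0.21 for INPP5D (-0.17 to 0.59), -0.02 for FOXO1 (-0.31 to 0.28) and -0.09 for FOXO3 (-0.51 to 0.33). The TK and DMSO libraries overlapped for all 9 genes, where 14% of all genes had groups that did not overlap.

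INSR in U2932 at 18 h was the 1 gene that passed, where 0.0182% of all genes did (3 genes) and 0.0121% were lower. It had 35 counts (0.669 CPM) in the single DMSO library and 3, 0 and 5 counts (0.0993, 0 and 0.111 CPM) in TK replicates 1, 2 and 3. INSR passed the filter on low counts through DOHH2 alone, and the DMSO side of this comparison is 1 library. The log2 change was -3.15 (SE 0.52, adjusted p = 0.0371), and the summed counts gave a level 9.24-fold higher in DMSO (95% interval 4.21 to 23.1, for counting error only). The same DMSO library stood above every other U2932 library, since the 5 libraries of 8 h held 1 to 6 counts. Its difference from DMSO at 8 h was 2.21 on the log2 scale (SE 0.47, adjusted p = 0.0975). The change with TK differed between the lines by 3.30 (DOHH2 minus U2932, SE 0.56, adjusted p = 0.0335), where 0.0243% of all genes differed. These 3 comparisons share the 1 DMSO library of U2932 at 18 h and are not independent. The difference between lines missed the threshold when DOHH2 DMSO 18 h replicate 1 was left out (3.28, adjusted p = 0.212) or replicate 3 (3.33, 0.177), and also without each of the 3 U2932 TK libraries (2.76 to 3.90). With the U2932 DMSO libraries of 8 h as control in its place, an alternative added after seeing the data, the change was -0.95 (adjusted p = 0.298). The difference between lines was then 1.10 (adjusted p = 0.315), where 4.77% of all genes differed. For 3.01% of all genes the change with TK was called lower in DOHH2, the direction opposite to that of INSR. Taking DMSO of both times together, the change of INSR in U2932 was -2.04 (adjusted p = 0.0604). Leaving out any 1 of the 3 TK libraries also ended the call, at -3.36 without replicate 1, -2.61 without replicate 2 and -3.75 without replicate 3.

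Traces of other DOHH2 transcripts were then looked at in that U2932 library. After seeing the data, 31 other genes were taken that had a mean of at least 20 CPM in DOHH2 and at most 0.2 CPM in each of the other 8 U2932 libraries. In the U2932 DMSO library of 18 h their sum was 0.383% of that in DOHH2, and in the other 8 libraries 0.0677 to 0.160%. The limit held in those 8 libraries and not in this one, so part of the gap is fixed by the choice. With the limit in all 9 libraries 17 genes were left, at 0.299% there and at 0.0605 to 0.156% in the other 8. INSR, as a percentage of its DOHH2 level, was at 0.559% there and at 0 to 0.148% in the others. Among the 31 genes were PIK3R6 (0.358% of its DOHH2 level) and PIK3R5 (0.542%), which encode regulatory subunits of PI3K-gamma. The part of such traces in the result for INSR was not tested.

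**Figure D4:**
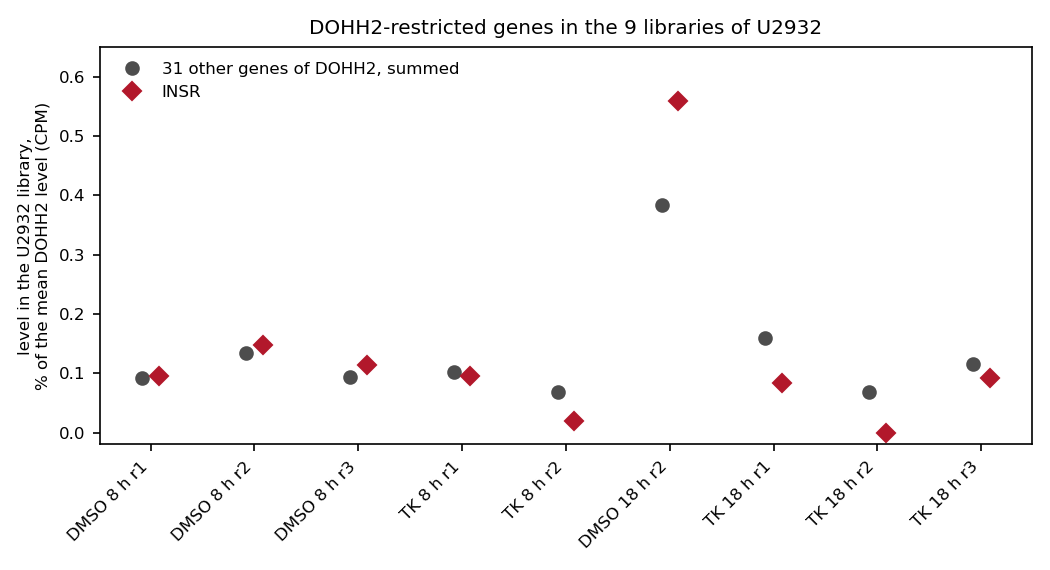
Level in each of the 9 U2932 libraries as a percentage of the mean level in DOHH2, for the sum of 31 genes nearly restricted to DOHH2 (grey circles) and for INSR (red diamonds), on a linear axis. The DMSO 18 h library stands above the other 8 for both (0.383% and 0.559%), in part because the genes were limited in the other 8 only.

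IGF1R, IRS1 and FOXO3 of U2932 had their lowest levels with TK at 18 h, as did 10.2% of all genes tested, for which those 3 libraries lay below the other 6. IGF1R was at 12.5, 15.1 and 16.9 CPM there, against 21.1 CPM in the DMSO library of 18 h and 20.1 CPM in the lowest of the 6 other U2932 libraries. IRS1 was at 8.18, 7.07 and 7.84 CPM, against 10.8 CPM in that DMSO library, which was the lowest of the others. FOXO3 was at most 6.45 CPM there and at least 6.79 CPM in the others. The log2 changes were -0.51 for IGF1R (95% interval -0.97 to -0.04, adjusted p = 0.661) and -0.50 for IRS1 (-0.92 to -0.07, adjusted p = 0.627), so neither passed over all genes. When DMSO of both times served as control both passed, at -0.65 (adjusted p = 0.0217) and -0.73 (0.0116), where 5.04% of all genes were called lower. With those of 8 h alone they were at -0.70 (adjusted p = 0.0120) and -0.80 (0.00395), where 8.78% were, and compound and time cannot be told apart there. The share of counts outside any gene was 5.87 to 6.36% in the U2932 TK libraries of 18 h and at least 7.78% in the other U2932 libraries, and its part in these differences was not tested. For IGF1R the change with TK at 18 h was not shown to differ between the lines (difference 0.46, 95% interval -0.14 to 1.07, adjusted p = 0.875), nor was that of IRS1 (0.19, -0.36 to 0.74, adjusted p = 0.971).

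The remaining genes of U2932 at 18 h had changes with TK of 0.31 for FOXO1 (95% interval -0.07 to 0.68), -0.23 for FOXO3 (-0.76 to 0.29) and -0.13 for PIK3CD (-0.54 to 0.28). They were 0.01 for PIK3R1 (-0.41 to 0.44), -0.02 for INPP5D (-0.50 to 0.46) and -0.04 for IRS2 (-0.71 to 0.64). All TK libraries lay on 1 side of the DMSO library for 6 of the 9 genes, as for 63.8% of all genes, so a single control library separates most genes from 3 others.

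**Figure D5:**
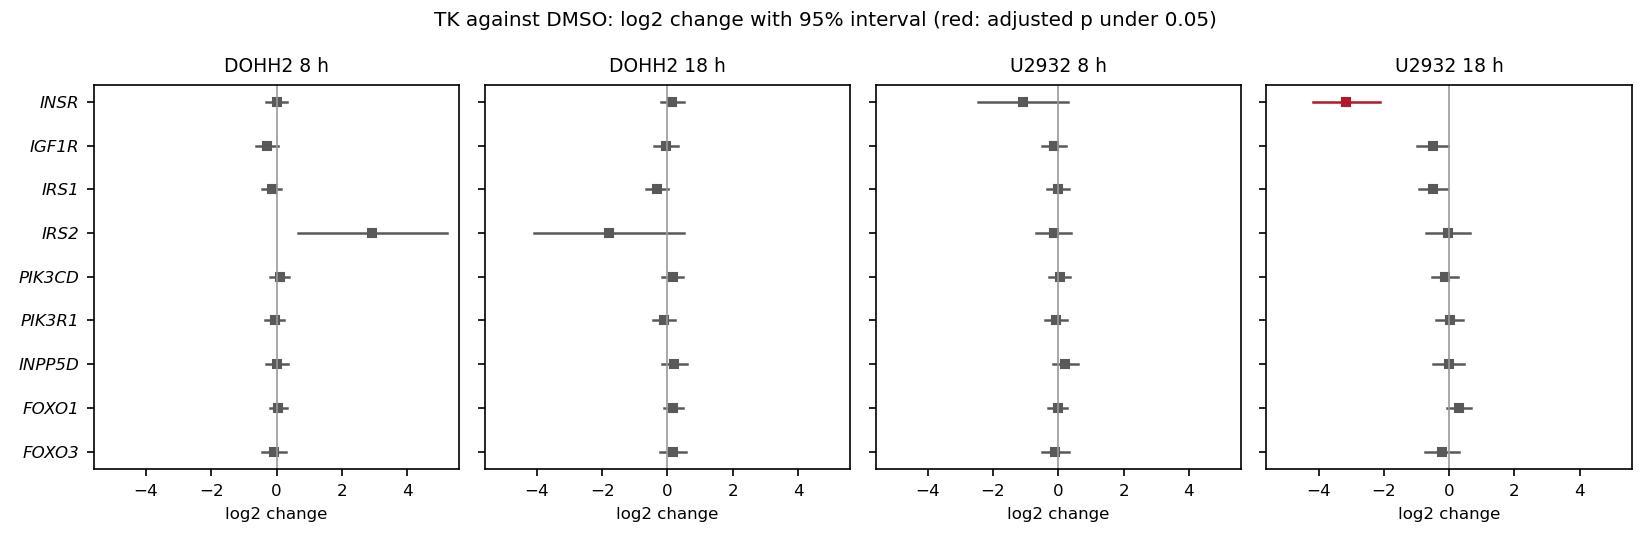
Log2 change with TK against DMSO for the 9 genes in each line and time, with bars of the 95% interval and red for an adjusted p under 0.05. INSR in U2932 at 18 h (-3.15) is the 1 gene past the threshold. The wide bars are those of IRS2 in DOHH2 (17 counts in 11 libraries) and INSR in U2932 (63 counts in 9 libraries).

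In the main edgeR fit, time in culture moved none of the 9 genes past the threshold, in either line and with either treatment. Some alternative fits called INSR, IRS1 or IGF1R in U2932, as listed further on. In DOHH2 with DMSO, IRS1 was at 25.1 and 23.9 CPM at 18 h and at most 20.7 CPM at 8 h (log2 change 0.45, SE 0.17, adjusted p = 0.318), where 0.631% of all genes passed. With TK in DOHH2, IGF1R was at 19.8 ± 0.848 CPM at 18 h and 14.4 ± 3.09 CPM at 8 h (SD, n = 3 each), a log2 change of 0.46 (SE 0.18, adjusted p = 0.165), where 1.57% of all genes passed. With TK in U2932, IRS1 was at 12.7 and 13.8 CPM at 8 h and at 7.70 ± 0.566 CPM (SD, n = 3) at 18 h, a change of -0.78 (SE 0.17, adjusted p = 0.0562), where 0.218% passed. The 2 times were apart for 1 of 9 genes with TK in DOHH2 (16.4% of all genes), for 5 with TK in U2932 (44.2%) and for 4 with DMSO in DOHH2 (34.5%). That change of IRS1 passed with DESeq2 (-0.77, adjusted p = 0.00324), without the filter on low counts, with the filter at 50 counts and with the libraries of U2932 alone. IGF1R had -0.57 in the same comparison (SE 0.19, adjusted p = 0.134). With DMSO in U2932, where 0.0364% of all genes passed, 8 of the 9 genes lay to 1 side in the single 18 h library, as did 63.9% of all genes.

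Some of the 9 genes varied together within the lines. After the mean of each line was taken away, IGF1R and IRS1 had r = 0.79 and IGF1R and FOXO3 r = 0.79 over 20 libraries (log2 CPM). PIK3CD and PIK3R1, whose products form 1 enzyme, had r = -0.82, with -0.93 over the 11 libraries of DOHH2 and -0.76 over the 9 of U2932. Within a line, libraries with more PIK3CD thus tended to have less PIK3R1. The highest PIK3R1 level was 1.44 times the lowest in DOHH2 and 1.64 times in U2932. The share of counts outside any gene in a library had r = 0.80 with PIK3R1, 0.68 with IGF1R, 0.65 with IRS1, 0.64 with FOXO3 and -0.66 with PIK3CD, and its part in these relations was not tested. The points share groups and library composition, so these values are descriptions only.

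Across all genes, the one most like each of the 9 in this pattern was sought among 10078 genes with a mean of at least 5 CPM. PIK3R1 was most like PHIP, named for an interaction with the pleckstrin homology domain of IRS1 (r = 0.96, rho = 0.95), and IRS1 most like SLC6A6, the taurine transporter (r = 0.95, rho = 0.93). IGF1R was most like FOSL2 (r = 0.93), a subunit of AP-1, PIK3CD most like ARHGAP45 (r = 0.92) and INPP5D most like DVL3 (r = 0.90). FOXO3 was most like ADAM17 (r = 0.90) and FOXO1 most like SMURF2 (r = 0.85). For INSR it was PIK3R6 (r = 0.83, rho = 0.57), and for IRS2 CYB5B (r = 0.69). IRS2 had at most 4 counts in any DOHH2 library, so its r over DOHH2 (0.75, against 0.52 over U2932) rests on single counts. In U2932 both INSR and PIK3R6 had only trace counts, 35 of the 63 of INSR in the DMSO library of 18 h and 13 of PIK3R6 there against 19 in the other 8 libraries, so their likeness over U2932 rests on that library.

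Other genes of the pathway differed between the lines too, as most genes tested did. Of all genes, 33% were higher and 34.9% lower in DOHH2 in DMSO at 8 h, and 34.2% and 34.9% with TK at 18 h. Of 15 insulin and IGF adaptors and binding proteins tested (21 listed), 8 were higher and 3 lower in DOHH2 in DMSO at 8 h, with a median log2 difference of 0.54. IGFBP2, which binds the insulin-like growth factors outside the cell, had 766 ± 231 CPM in DOHH2 against 0.427 ± 0.0116 CPM in U2932 (log2 difference 10.80, SE 0.41). IGF2R, the receptor that clears IGF2, was higher in DOHH2 as well (1.51, SE 0.16). The adaptors SH2B2 (-1.15, SE 0.17) and GRB2 (-1.09, SE 0.12) were lower. At 18 h with TK, 8 were higher and 3 lower (median 0.41), among them IGFBP2 (8.99), IGFBP4 (2.87), IGF2R (2.26) and SH2B2 (-1.60).

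Of 19 PI3K subunits and B cell adaptors, 6 were higher and 7 lower in DOHH2 in DMSO at 8 h (median -0.04), and 9 and 5 with TK at 18 h (median 0.25). Of all genes, 33% were higher and 34.9% lower in DMSO at 8 h, and 34.2% and 34.9% with TK at 18 h. PIK3R6 had 66.6 ± 11.1 CPM in DOHH2 against 0.0672 ± 0.0462 CPM in U2932 (log2 difference 9.90, SE 0.40), and PIK3R5 had 48.4 ± 7.48 and 0.0842 ± 0.0820 CPM (9.09, SE 0.40). They reached at most 0.249 and 0.268 CPM in U2932 and passed the filter only through DOHH2, so they had to differ. The catalytic subunit PIK3CA went the other way, at 19.2 ± 0.886 CPM in DOHH2 against 111 ± 13.2 CPM in U2932 (-2.53, SE 0.23), as did PIK3IP1, an inhibitor of PI3K (-2.25, SE 0.28). PIK3CD and both gamma adaptors were thus higher in DOHH2 and PIK3CA in U2932. In TK at 18 h PIK3CG, the gamma catalytic subunit, was also called higher in DOHH2 (1.58, SE 0.22).

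Of 11 lipid phosphatases tested (12 listed), 5 were higher and 2 lower in DOHH2 in DMSO at 8 h (median 0.24), and 6 and 1 with TK at 18 h (median 0.63). OCRL and INPP5E, both 5-phosphatases, were higher in DOHH2, with log2 differences of 1.15 (SE 0.13) and 1.01 (SE 0.13). INPP5A, which the list also holds although it acts on soluble inositol phosphates, was lower (-0.98, SE 0.16). Of 24 AKT and mTOR genes, 9 were higher and 9 lower in DMSO at 8 h (median 0.10), and 12 and 9 with TK at 18 h (median 0.24). Beside both lists, 33% of all genes were higher and 34.9% lower in DMSO at 8 h. With TK at 18 h these shares were 34.2% and 34.9%. PHLPP1, a phosphatase of AKT, had 17.5 ± 0.855 CPM in DOHH2 against 375 ± 14.5 CPM in U2932 (-4.42, SE 0.14). DEPTOR (-2.30) and AKT1S1 (-1.63), which both inhibit mTOR complexes, were lower in DOHH2 too, and the forkhead gene FOXK1 was higher (1.69). The phosphatases and inhibitors named here were thus divided. INPP5D, OCRL and INPP5E were higher in DOHH2, and INPP5A, PHLPP1, DEPTOR, AKT1S1 and PIK3IP1 were higher in U2932.

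Of 29 FOXO family members and targets tested (30 listed), 11 were higher and 11 lower in DOHH2 in DMSO at 8 h (median 0.15), and 15 and 9 with TK at 18 h (median 0.37). The 4 named here by their size are IL7R, KLF2, S1PR1 and BCL6. IL7R, the receptor for interleukin 7, had 31.7 ± 5.83 CPM in DOHH2 against 0.0288 ± 0.0296 CPM in U2932 (log2 difference 9.96, SE 0.35). KLF2 had a difference of 7.19 (SE 0.38) and the egress receptor S1PR1 one of 5.14 (SE 0.34). BCL6, the repressor that marks the germinal centre, averaged 0.106 CPM in DOHH2 against 400 CPM in U2932 (-11.95, SE 0.41). IL7R and KLF2 reached at most 0.210 and 0.165 CPM in U2932 and passed the filter only through DOHH2. BCL6 had a median of 0.0597 CPM in DOHH2. Genes so close to 1 line only had to differ between the lines. These 5 lists were written with earlier results of these data known, and the share of all genes called in each direction was 33 to 34.9%.

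With TK, 1 gene of the 5 lists passed in any comparison with DMSO. SESN1, a sestrin that FOXO factors and p53 both induce, rose in DOHH2 at 18 h from 12.4 ± 0.337 CPM (SD, n = 2) to 27.8 ± 0.963 CPM (SD, n = 3), a log2 change of 1.16 (SE 0.15, adjusted p = 0.000641). None of the other 28 FOXO family members and targets passed there, where 0.0668% of all genes rose. In U2932 at 18 h SESN1 was at 8.10 ± 1.36 CPM with TK and 7.75 CPM with DMSO, and the difference between the lines was 1.10 (SE 0.23, adjusted p = 0.150). In DOHH2 2 FOXO targets rose with time in DMSO, KLF2 from 10.2 ± 3.28 to 25.9 ± 1.14 CPM (1.34, SE 0.24, adjusted p = 0.00908) and CITED2 from 38.3 ± 4.97 to 62.0 ± 7.72 CPM (0.70, SE 0.15, adjusted p = 0.0362), where 0.146% of all genes rose. With TK 5 of the FOXO list rose with time in DOHH2, of which SESN1 (1.05), IL7R (0.72), CCNG2 (0.67) and CITED2 (0.57) are named by their size, and so did PHLPP1 of the AKT list (0.54), where 0.68% of all genes rose. In U2932 no gene of the lists passed between times with either treatment.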

How the data were processed

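PolyA RNA from both lines was sequenced in 20 libraries, with 1 deposited count table each. Per the submitters' processing notes the authors used STAR, HTSeq, edgeR and GRCh38.p10, with no versions. The deposited values are raw counts of reads per gene. The strand setting is not given in the sources used here, nor is the annotation, so antisense reads cannot be told apart. The 5 summary rows (32.7 to 62.7% of all counts) were left out of library sizes and tests.

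All libraries were fitted together with edgeR 4.0.16 in R 4.3.3 (TMM scaling, robust quasi-likelihood, 1 coefficient per group of line, treatment and time). The filter asked for 0.288 CPM in 3 or more libraries, which equals 10 counts in the median library. This left 16478 of 34160 genes with any count. P-values were adjusted by Benjamini-Hochberg over these genes with a threshold of 0.05. There were 12 contrasts: TK against DMSO by line and time, its difference between lines at each time, DOHH2 against U2932 in DMSO at 8 h and with TK at 18 h, and 18 h against 8 h by line and treatment. SEs came from the test statistic and 95% intervals are normal intervals from the SE. Correlations used log2 CPM with a prior count of 2. Intervals of count ratios are exact binomial (95%). Exon lengths and positions are from GENCODE v29. The fit was tested on simulated data.

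All 9 genes are reported. From each list, the rule named per contrast up to 4 genes past the threshold with the largest change and at least 5 CPM, or else the gene with the smallest p. Genes named by their smallest p alone are mostly left out. Some items that the rule names are not reported here. The members and lists were chosen with earlier results of these data known. The alternatives tried were DESeq2 1.42.0, RLE scaling, a replicate block, the low-count filter dropped or set at 50 counts (12880 genes), 1 line only, DMSO of both times as control and each library left out. Fits with the DMSO libraries of 8 h as the only U2932 control, or without DOHH2 TK replicate 1 of both times, were added after seeing the data, as was a limit in all 9 U2932 libraries for genes nearly restricted to DOHH2. Same-numbered libraries deviated together in all 3 pairs between the lines in DMSO at 8 h (r = 0.34, 0.19 and 0.39 over 9862 genes) and in both pairs between times in DOHH2 with DMSO (0.43 and 0.32), while each other contrast with shared numbers had at least 1 pair with a negative r. The labels do not say what a number shares.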

Additional observations from a re-analysis of the deposited data

Results flagged for a closer look

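The change of INSR with TK at 18 h differed between the lines by 3.30 on the log2 scale (SE 0.56, adjusted p = 0.0335 with edgeR's quasi-likelihood test), which the test of that difference flagged. In DOHH2 the change was 0.15 (3 TK and 2 DMSO libraries) and in U2932 -3.15 (3 TK libraries and 1 DMSO library). The U2932 value rests on 35 counts in the DMSO library and 8 counts in the 3 TK libraries together. With the DMSO libraries of 8 h as the U2932 control the difference was 1.10 (adjusted p = 0.315).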

How the results depend on the processing

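For the 9 genes in 12 comparisons, 1323 alternative values were computed. Of these 1274 kept the call and the direction of any call, 38 lost a call, 11 gained one and 0 turned a called direction. INSR and IRS2 kept their calls between the lines under every alternative run. Both passed the filter only through the line in which they are high, so these calls were set beforehand and lend no support.

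Members called with TK in U2932 at 18 h were 1 in the main analysis. They were 0 with the filter at 50 counts, the replicate block or 1 line only, and 0 without any TK library. With either other DMSO control they were 2 (IGF1R and IRS1), where 10% (DMSO of both times) and 18% (8 h alone) of all genes were called. Members with a difference of TK effects between lines at 18 h were 1. They were 0 with the filter at 50 counts, the replicate block or the 8 h control, and 0 to 1 with libraries left out. Members changed with time in U2932 with DMSO were 1 without filter and with DESeq2 (INSR, adjusted p = 7.11e-05 and 0.00276). With TK they were 1 without filter, with the filter at 50 counts and with DESeq2 (IRS1) and 2 with 1 line only (IRS1 and IGF1R).

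Counts over all genes moved more. With no filter they were 32 (8 h) and 170 (18 h) for TK in DOHH2, and 9 and 102 for TK in U2932. They were 18 and 73 for the difference of TK effects between lines at 8 h and 18 h, and for time 445 (DOHH2 DMSO), 332 (U2932 DMSO), 861 (DOHH2 TK) and 739 (U2932 TK). DESeq2 gave 90 for TK in DOHH2 and 60 for TK in U2932, both at 18 h, 23 for their difference, and for time 280, 148, 880 and 885 in the same order. The filter at 50 counts gave 1 for TK in U2932 at 18 h, 2 for the difference at 18 h and 77 for time in U2932 with TK. With 1 line only they were 6 for TK in DOHH2 at 18 h and 5 in U2932, and for time 43, 94, 31 and 1415. With DMSO of both times they were 62 in DOHH2 and 1654 in U2932. With the 8 h control, they were 2967 in U2932 and 786 for the difference. Without DOHH2 TK replicate 1 of both times they were 76 for TK in DOHH2 at 18 h, 115 for time with TK and 12 for the difference.

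Replicate numbers do not pair the libraries by the labels. With the replicate block, counts were 1 for TK in U2932 at 18 h, 15 and 128 for time in U2932 with DMSO and TK, and 2 for the difference at 18 h. INSR with TK in U2932 at 18 h was then -3.20 (adjusted p = 0.0562) and its difference between lines 3.36 (adjusted p = 0.0895). No other call of the 9 genes changed with the block.

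Leaving out 1 library at a time gave 1 to 18 genes for TK in DOHH2 at 18 h, 1 to 4 genes for TK in U2932 at 18 h, 0 to 138 genes for time in DOHH2 with DMSO, 1 to 2 genes for time in U2932 with DMSO. It gave 36 to 1268 genes for time in DOHH2 with TK, 0 to 118 genes for time in U2932 with TK and 0 to 5 genes for the difference at 18 h. The cause of these changes was not tested. The difference of TK effects between lines at 8 h had 0 calls, also with DESeq2. With edgeR 316 genes had an unadjusted p under 0.05, fewer than a share of 0.05 of the 16478 tested. Depth limits INSR in U2932 and IRS2 in DOHH2 to single counts in most libraries, where no change with TK was measurable with precision.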

Other observations

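Within a library, per kb of exon, FOXO1 was 2.70 to 4.49 times FOXO3 in DOHH2 and 6.40 to 9.83 times FOXO3 in U2932, with no overlap between the lines. In U2932 the ratio was 9.31 ± 0.539 with TK at 18 h (SD, n = 3) and 6.40 in the DMSO library of that time. PIK3CD was 3.85 to 8.40 times PIK3R1 in DOHH2 and 2.08 to 4.46 times in U2932. IGF1R was 0.483 to 0.811 times IRS1 in DOHH2 and 1.10 to 1.60 times in U2932, again with no overlap. These ratios were chosen after the values were seen and were not tested.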
